A study of Nothobranchius furzeri with 6 samples.

Results

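The gene table of a single-cell RNA-sequencing study of the killifish retina was searched for entries whose gene symbol starts with OPN1 or OPN4, in upper or lower case. Of 24989 entries, 4 met this rule. They were 1 cone opsin, OPN1SW1 (XLOC_002931), and 3 melanopsins, OPN4A (XLOC_001697), OPN4B (XLOC_018248) and OPN4XB (XLOC_024297). In the RefSeq gene table, OPN1SW1 is opn1sw1, the short-wavelength opsin of ultraviolet (UV) cones. The other cone opsins of the table carry other symbols (LWS-B, RH2-B) or a bare model identifier (2 entries, of which XLOC_016885 was used here and XLOC_016884 was not), and are used below only for comparison.

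The study profiled neural retinas of untreated, wild-type female killifish (GRZ-AD inbred strain of Nothobranchius furzeri), which live for a few months and serve to study ageing. Fish were 6, 12 or 18 weeks old, with 2 libraries per age, and the retinas of 3 fish were pooled in each 6-week-old library and those of 2 fish in each older library. The retinal pigment epithelium (RPE) was rinsed off before dissociation with papain, though the authors still found a cluster of RPE cells. Cells were captured with 10x Genomics v3 3′ chemistry. Copies of each transcript were counted once by their unique molecular identifier (UMI), and the authors' subtype names were used as cell types.

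Cone opsins bind a retinaldehyde chromophore and absorb light in the outer segments of cones, and the opsin that a cone makes sets the wavelengths to which it responds. Melanopsins are a separate opsin family that signals through a Gq-type G protein, phospholipase C beta and TRPC cation channels. In mammals melanopsin marks the intrinsically photosensitive ganglion cells, which serve the body clock and the pupil. Fishes have several melanopsin genes, and melanopsin transcripts of fishes are known from horizontal, bipolar, amacrine and ganglion cells. The X in OPN4XB names the Xenopus-type branch of the family.

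The table held 37243 cells, with 4804 to 7235 cells and 17393089 to 24317894 UMIs per library, and a median of 2082 to 2574.5 UMIs per cell. A cell barcode occurred in 2 libraries 171 times. Tests used the 16 of 18 subtype names that had at least 10 cells in every library, and RPE (51 cells) and red blood cells (28 cells) were left out of them. Levels are CPM, the UMIs of a gene as a share of all UMIs of the cell type in a library, scaled to 1000000. Because counting at the 3′ end and transcript lengths were not examined, levels were compared between types and ages for 1 gene at a time. Values are listed in the order 6-week-old libraries 1 and 2, 12-week-old libraries 1 and 2, and 18-week-old libraries 1 and 2, and errors are SD over the 6 libraries unless stated. The authors clustered these same cells on genes of high variance and told types and subtypes apart by marker genes, so the levels across types are a description without a test.

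In all cells together, 135368 UMIs of OPN1SW1 were counted, 16390 of OPN4XB, 2005 of OPN4B and 469 of OPN4A. Each gene had its own place in the retina. UV-Cones held 82.3% of the OPN1SW1 UMIs, Vip Neurons 84.4% of the OPN4A UMIs, Bipolar Cells 71.4% of the OPN4B UMIs and Horizontal Cells 55.9% of the OPN4XB UMIs. Bipolar Cells also held 6493 OPN4XB UMIs, and Vip Neurons 239. These shares grow with the number of cells of a type, and Bipolar Cells were 17770 of the 37243 cells. By level, OPN4B had its highest mean among the tested types in Starburst Amacrine Cells (62.3 CPM beside 38.4 in Bipolar Cells, with overlapping ranges). Retinal ganglion cells, in which melanopsin is best known in mammals, held 5 UMIs of OPN4A, 40 of OPN4B and 39 of OPN4XB in 1129 cells.

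**Figure D1:**
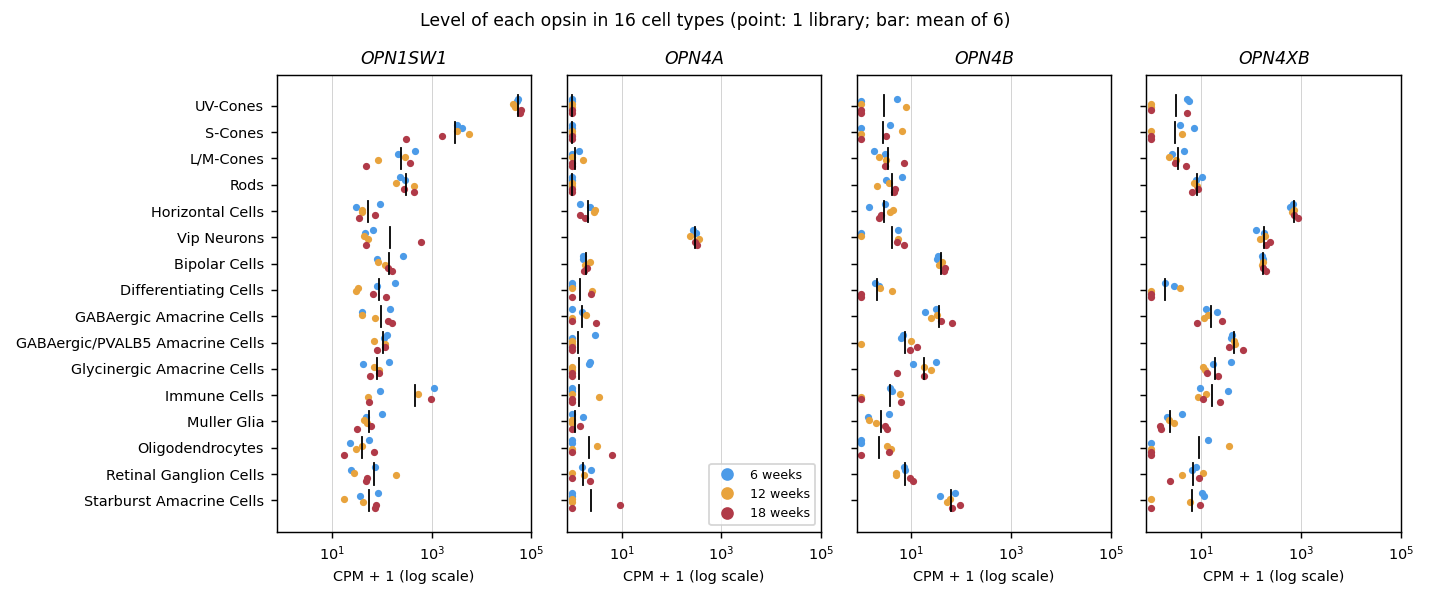
CPM plus 1 (log scale) of the 4 genes in the 16 tested cell types, with a point per library coloured by age and a bar at the mean of 6 libraries. OPN1SW1 lay at 43618 or more in UV-Cones and OPN4A at 230 or more in Vip Neurons, whereas OPN4B and OPN4XB were spread over several types of the inner retina.

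OPN1SW1 was the transcript of a single cone subtype, at 52759 ± 6403 CPM in UV-Cones. Its levels there were 54660, 52326, 43618, 47406, 60712 and 57832 CPM. In the median UV-Cone, OPN1SW1 made up 5.01% of all UMIs of the cell, with library medians from 4.28% to 5.72%. S-Cones came next, with 3298, 4060, 3164, 5599, 1582 and 301 CPM (mean 3000 ± 1859), which was 17.6-fold lower on average, and the ranges of both types did not overlap. Within S-Cones both 18-week-old libraries were below all others.

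All other types were far lower, and from S-Cones downward every type overlapped with its neighbour in the order of means. Immune Cells had OPN1SW1 levels of 1104, 91.7, 542, 53.2, 983 and 54.2 CPM, so the libraries numbered 1 were high at every age. Rods had 233, 294, 194, 443, 278 and 436, and L/M-Cones, the cones of long and medium wavelengths, had 459, 215, 297, 84.9, 367 and 47.2. The high values of these types lay in a few cells, as given below. In Vip Neurons OPN1SW1 was at 67.5, 45.0, 44.1, 52.8, 615 and 48.3 CPM, so that 18-week-old library 1 stood alone. Bipolar Cells had 268, 80.9, 84.3, 115, 134 and 159 CPM.

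The lowest, median and highest library of OPN1SW1 were 69.6, 113 and 128 CPM in GABAergic/PVALB5 Amacrine Cells and 39.1, 104 and 157 in GABAergic Amacrine Cells. They were 40.8, 77.7 and 141 in Glycinergic Amacrine Cells and 16.6, 55.9 and 82.1 in Starburst Amacrine Cells. In Differentiating Cells they were 29.2, 72.9 and 188, and in Retinal Ganglion Cells 23.3, 48.7 and 196. Müller glia, which span and support the retina, had 31.7, 48.7 and 99.7, Horizontal Cells 29.5, 39.7 and 93.5, and Oligodendrocytes 16.4, 34.7 and 68.4. Oligodendrocytes, which make myelin and no visual pigment, had the lowest values of these types and did not overlap with GABAergic/PVALB5 Amacrine Cells.

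An OPN1SW1 UMI was found in 95.2% of UV-Cones (Wilson 95% interval 92.8% to 96.9%). It was also found in 18.8% of Immune Cells and in 15.2% of Oligodendrocytes, at median depths of 4285, 2292 and 5284 UMIs per cell. After thinning every cell to 1000 UMIs the shares were 93.9%, 10.8% and 3.79%. A share of 28.0% in S-Cones (16.7% thinned) was above those background shares, whereas 22.0% in L/M-Cones (9.45% thinned) was not above that of Immune Cells after thinning. Intervals and limits here cover counting error only.

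The OPN1SW1 transcripts outside UV-Cones lay in few cells. A limit of 1% of the UMIs of a cell, chosen after the values were seen, was set for OPN1SW1 and for LWS-B. LWS-B (XLOC_016886) bears the symbol of a long-wavelength opsin, but RefSeq lists its second identifier as opn1sw2, the short-wavelength opsin of blue (S) cones. LWS-B was at 39226 ± 6143 CPM in S-Cones and at 2394 in UV-Cones. Of 440 UV-Cones, 401 passed the limit for OPN1SW1 only, 25 for LWS-B only, 1 for both and 13 for neither. Of 479 S-Cones, 406 passed for LWS-B only, 40 for OPN1SW1 only, 2 for both and 31 for neither. Cells with both opsins past the limit were therefore rare under either name, at 3 in all.

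**Figure D2:**
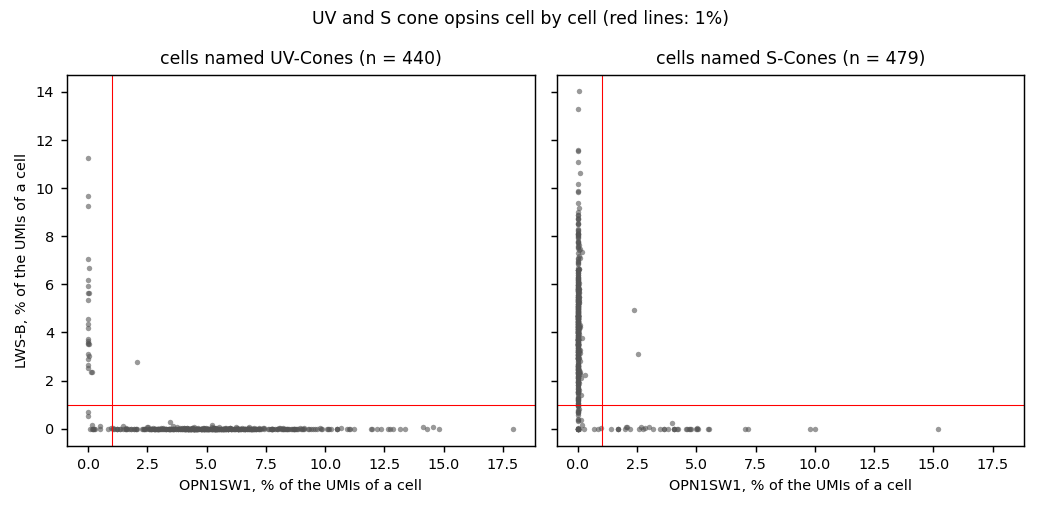
Percent of the UMIs of a cell that came from OPN1SW1 (x axis) and LWS-B (y axis) in cells named UV-Cones (left, 440 cells) and S-Cones (right, 479 cells), with red lines at 1%. Cells follow 1 axis or the other, and 40 cells named S-Cones lie along the OPN1SW1 axis and 25 named UV-Cones along the LWS-B axis.

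The 42 S-Cones with at least 1% OPN1SW1 (8.77% of S-Cones) held 95.8% of the OPN1SW1 UMIs of that type. They numbered 8, 13, 6, 7, 7 and 1 in the 6 libraries, and 7 S-Cones lay between 0.5% and 2%. Without the 42 cells the OPN1SW1 level of S-Cones was 406, 168, 48.1, 52.6, 60.2 and 71.1 CPM. In Immune Cells 4 cells held 86.0% of the OPN1SW1 UMIs, and 1 of them held 648. In L/M-Cones 10 cells held 78.8%, in Rods 16 cells 58.5%, in Vip Neurons 1 cell 63.1% and in Retinal Ganglion Cells 1 cell 42.5%. With such cells left out, the mean levels outside UV-Cones were 38.6 to 135 CPM. How these cells came to hold OPN1SW1 was not tested.

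OPN1SW1 did not pass the test between ages in the cones that make it. In UV-Cones the log2 fold change was 0.04 (SE 0.14, adjusted p 0.942) at 18 against 6 weeks, -0.24 (SE 0.14) at 12 against 6 weeks and 0.28 (SE 0.14, adjusted p 0.558) at 18 against 12 weeks, by edgeR's quasi-likelihood test with Benjamini-Hochberg adjustment over all genes of the type. In that type 1.49% of all tested genes were called at 18 against 6 weeks. Both 12-week-old libraries were below the other 4, but the difference did not pass the test.

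In S-Cones OPN1SW1 fell. The log2 fold change was -1.97 (SE 0.35, adjusted p 0.000733) at 18 against 6 weeks and -2.26 (SE 0.35, adjusted p 0.000180) at 18 against 12 weeks, while 12 against 6 weeks gave 0.29 (SE 0.33). Of all genes tested in S-Cones, 1.47% were called at 18 against 6 weeks and 0.842% were called lower, and 0.526% were called lower at 18 against 12 weeks. The size rested on 18-week-old library 2, in which 1 cell passed the limit of 1%. The 18 against 6 week change was -1.22 without that library and -3.63 without 18-week-old library 1, and the 18 against 12 week change was -1.504 and -3.91. DESeq2 did not call the change at 18 against 6 weeks (-1.99, adjusted p 0.440), and over all 14 alternatives the adjusted p ranged from 5.9e-46 to 0.465.

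Without the cells of at least 1% OPN1SW1 the fall in S-Cones took another course. It was then called at 12 against 6 weeks (-2.46, SE 0.34, adjusted p 7.1e-05) and at 18 against 6 weeks (-2.16, SE 0.31, adjusted p 2.9e-05), and the change at 18 against 12 weeks was 0.29 (adjusted p 0.944). What remained at 6 weeks lay again in few cells, since 70 and 38 of the 135 UMIs of 6-week-old library 1 came from 2 cells, and 26 of the 50 UMIs of 6-week-old library 2 from 1 cell. The part of the OPN1SW1-rich cells in the difference between ages was not tested further.

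The rise of OPN1SW1 in Vip Neurons came from 1 cell. It was called at 18 against 6 weeks (2.63, SE 0.56, adjusted p 0.0150) and at 18 against 12 weeks (2.80, adjusted p 0.0359), where 0.309% and 0.123% of all genes of the type were called higher (0.761% in either direction at 18 against 6 weeks). In 18-week-old library 1, a single cell held 130 of the 150 UMIs. Without that cell the changes were 0.25 (adjusted p 0.876) and 0.42 (adjusted p 0.858), and without 18-week-old library 1 they were -0.26 and -0.091. Over 13 alternatives the adjusted p at 18 against 6 weeks ranged from 1.5e-14 to 0.914.

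**Figure D3:**
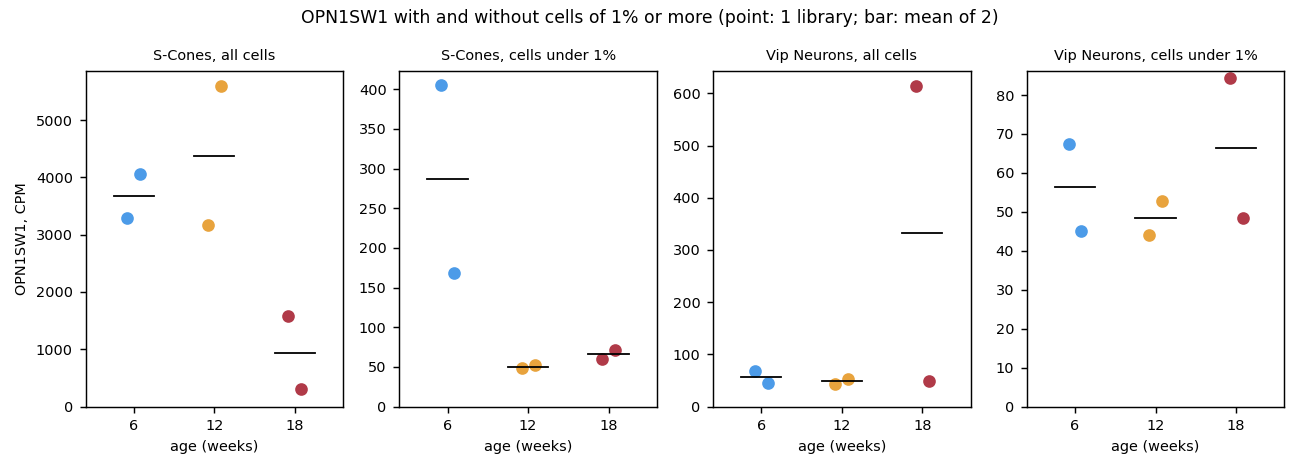
OPN1SW1 in CPM by age in S-Cones and Vip Neurons, over all cells and over cells under 1% OPN1SW1, with a point per library and a bar at the mean of 2. The 18-week-old S-Cones lie lowest over all cells (1582 and 301) but at 60.2 and 71.1, next to the 12-week-old ones, under the limit, and the high Vip Neurons point of 615 drops to 84.3.

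The share of UV-Cones among the cones did not pass the test between 6 and 18 weeks. Of the cells named as cones, UV-Cones made up 17.6% ± 0.948 (SD, n = 2 libraries) at 6 weeks, 16.9% ± 2.21 at 12 weeks and 17.1% ± 1.15 at 18 weeks (two-sided exact permutation test over 90 assignments, p 0.756). S-Cones made up 15.7% ± 1.69, 19.1% ± 1.49 and 23.5% ± 0.129, and L/M-Cones 66.7% ± 2.63, 64.0% ± 3.70 and 59.4% ± 1.28. The exact permutation p for S-Cones was 0.0222, the smallest this design can give, and 0.0667 after adjustment over the 3 subtypes, and that for L/M-Cones was 0.0667 (adjusted 0.100). An edgeR fit to the numbers of cells gave a log2 fold change of 0.59 for S-Cones (adjusted p 0.00559). As a share of all cells, S-Cones were 0.37 percentage points higher at 18 than at 6 weeks, which did not pass the exact permutation test (adjusted p 0.4). With a replicate block, the exact permutation test of the S-Cones share among cones gave p 0.0556 over 36 assignments (adjusted p 0.0833). This is the smallest p that the blocked design can give and lies above the threshold, so this test could not call any share. Cells were counted here under their deposited names, including the 25 and 40 that passed the limit for the other opsin only.

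The genes around the opsin in cones were described from 2 lists. Of 21 entries for cone phototransduction, 16 were tested in UV-Cones and none was called by edgeR at 18 against 6 weeks. In S-Cones 17 were tested, and 1.47% of all genes of that type were called. GUCA1A (XLOC_004931), a guanylate cyclase activating protein, rose there by 0.95 on the log2 scale whereas GRK7(1OF2), a cone opsin kinase, fell by 3.16. The fall of GRK7(1OF2) in S-Cones rested on low counts, with 28, 13, 6, 6, 3 and 2 UMIs in the 6 libraries. In L/M-Cones 20 were tested, GUCA1A rose by 1.57, and GRK7(1OF2) fell by 1.57 and GUCA1D by 0.74, while 2.94% of all genes of that type were called. GUCA1A levels in L/M-Cones were 352, 229, 793, 395, 928 and 828 CPM, and in S-Cones 2118, 2056, 3931, 2581, 4137 and 4019, so that the 6- and 18-week-old libraries did not overlap in either type.

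Of 10 entries for factors that set cone identity, 6 were tested in UV-Cones and 5 in S-Cones, and none was called in either by edgeR. In L/M-Cones 4 of 7 fell at 18 against 6 weeks, beside 1.20% of all genes of the type called lower, and the median of the 7 was -0.70 beside -0.002 over all tested genes. These were THRB (-0.80), the thyroid hormone receptor that directs long-wavelength cones, SAMD7 (-1.45), a photoreceptor gene repressor, and the zinc finger factors SALL1A (-0.73) and SALL3A (-0.70). THRB stood at 182, 198, 126, 165, 103 and 120 CPM, and both 18-week-old libraries were below all younger ones. The median UMIs per L/M-Cone were 5484.5, 7294, 7815, 7642, 4887.5 and 3244, so both 18-week-old libraries were also the shallowest. The part of depth in the changes of L/M-Cones given here and above was not tested.

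OPN4A was highest in Vip Neurons. Its levels there were 265, 304, 230, 361, 299 and 326 CPM (mean 298 ± 45.7), and in the next tested type, Starburst Amacrine Cells, it averaged 1.41, from a single UMI. The ranges did not overlap. Rods, S-Cones and UV-Cones had no OPN4A UMI in any library, which allows up to 0.261, 1.38 and 1.43 CPM at 3 UMIs per type. An OPN4A UMI was found in 57.7% of the 305 Vip Neurons (Wilson 95% interval 52.1% to 63.1%), in 0.542% of Oligodendrocytes and in 0.115% of Immune Cells, and in 22.3%, 0 of 369 and 0 of 873 cells after thinning to 1000 UMIs, where the Wilson upper limits of the zeros are 1.03% and 0.438%.

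The Vip Neurons are cells that the authors placed among the bipolar cells in their main annotation and named apart in the finer one. ISL1, a factor of several retinal neurons, was at 228 CPM, higher than in any other tested type. The ganglion cell factor POU4F2, the horizontal cell factor LHX1A and the amacrine factor TFAP2B were at 0. CABP5A, a calcium-binding protein of bipolar cells, was at 143 beside 9444 in Bipolar Cells, so the cells are called here by the authors' name only.

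Of 17 entries listed for melanopsin signalling (1 of them without a count), 5 had their highest mean of the 16 types in Vip Neurons, beside 9.16% of all 23593 genes with a count. TRPC6B (XLOC_012137), a TRPC channel, was at 3973, 3780, 4140, 4146, 5302 and 5999 CPM, 15.2-fold above Bipolar Cells (301 ± 72.7), and no library overlapped. PLCB4 (XLOC_009253), the phospholipase C of the phototransduction cascade in mammalian melanopsin cells, was at 778, 638, 681, 726, 677 and 616 CPM, 3.63-fold above Horizontal Cells (189, with libraries from 144 to 235). TRPC7 (XLOC_005200) was at 67.4 ± 19.3 beside 10.8 ± 9.25 in Glycinergic Amacrine Cells, and GNAQ (XLOC_024293), a Gq alpha subunit, at 76.5 beside 44.1 in Retinal Ganglion Cells. TRPC6A (XLOC_005201) was at 21.6 beside 6.59 in Glycinergic Amacrine Cells. For GNAQ and TRPC6A the ranges over libraries overlapped with those of the next type, and TRPC6A had no UMI in 18-week-old library 2 of Vip Neurons. In contrast EOMESA and ADCYAP1B, which in mammals mark melanopsin ganglion cells, had their highest mean in Retinal Ganglion Cells, at 15.2 and 316 CPM, and were at 0 and 1.5 in Vip Neurons.

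Other opsins were also counted in Vip Neurons. OPN5, neuropsin, was at 219 ± 38.3 CPM. Among the 305 cells, 102 had UMIs of OPN4A and OPN5, 74 of OPN4A only, 54 of OPN5 only and 75 of neither, and 85 had UMIs of OPN4A and OPN4XB. In all, 176 cells had an OPN4A UMI, 156 an OPN5 UMI and 138 an OPN4XB UMI. Whether the opsins shared cells more often than these totals alone would give was not tested. At 1000 UMIs per cell 15 had both OPN4A and OPN5 and 191 neither, so these numbers depend on depth. The highest OPN4A count in a cell was 11 UMIs.

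OPN4A did not pass the test with age. In Vip Neurons it changed by 0.08 (SE 0.23, adjusted p 0.947) at 18 against 6 weeks on the log2 scale. This was the only type in which its counts passed the filter. None of the 6 tested signalling entries was called in Vip Neurons by edgeR. Of the cone phototransduction entries, GUCA1A rose there (1.73), with 121, 63.8, 191, 158, 213 and 435 CPM, so transcripts of a cone gene were present in the sums of this type.

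OPN4B was the melanopsin of bipolar and amacrine cells, at low levels. Starburst Amacrine Cells, the cholinergic amacrine cells, had 73.0, 35.8, 58.1, 50.6, 93.0 and 63.3 CPM (mean 62.3 ± 19.5). Bipolar Cells had 32.6, 30.9, 40.4, 34.8, 47.1 and 44.3 (mean 38.4 ± 6.57), and GABAergic Amacrine Cells 30.7, 17.5, 32.2, 23.7, 38.4 and 64.5 (mean 34.5 ± 16.4). These 3 types overlapped with one another. Glycinergic Amacrine Cells followed with 17.0 and Retinal Ganglion Cells with 6.37, and all photoreceptor types and Vip Neurons averaged 3.17 or less.

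An OPN4B UMI was found in 6.60% of Starburst Amacrine Cells, 4.13% of GABAergic Amacrine Cells and 3.61% of Bipolar Cells thinned to 1000 UMIs, beside 0.229% of Immune Cells and 0.531% of Retinal Ganglion Cells. Before thinning the first 3 shares were 21.3%, 9.15% and 6.71% at median depths of 3662, 2855 and 1963 UMIs, and that of Immune Cells was 0.687%. No more than 6 UMIs came from a single cell in these 3 types. The 51 cells named RPE had 43 OPN4B UMIs, but 17 of them lay in 1 cell and 6 cells held all of them. The OPN4B level of RPE averaged 435 CPM over libraries (0 to 1944), above the mean of every tested type. The RPE had been rinsed off these retinas, but the paper reports that it adhered more in young fish. RPE65A had its highest mean in the cells named RPE, at 1271 CPM.

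Within Bipolar Cells OPN4B differed several-fold between the authors' clusters, which are given by number. The means were 127 CPM in cluster 10, 89.1 in cluster 12, 84.7 in cluster 9, 65.3 in cluster 25 and 45.3 in cluster 8. In 6 of the 13 bipolar clusters the counts were too low for a test. Among bipolar cells 1192 had an OPN4B UMI, 4698 an OPN4XB UMI and 417 both, of 17770.

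**Figure D4:**
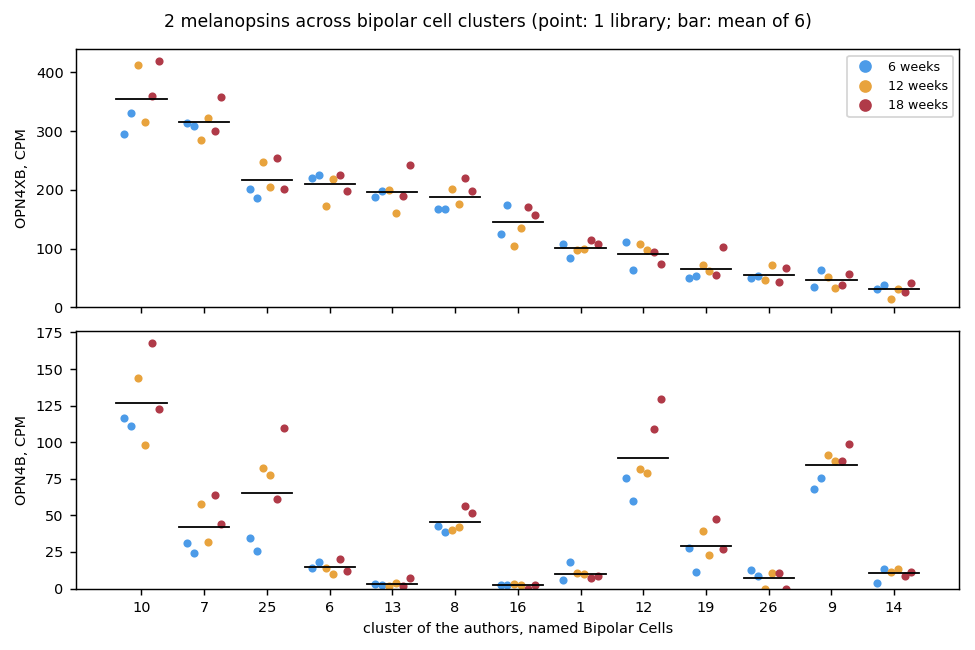
OPN4XB (top) and OPN4B (bottom) in CPM in the 13 clusters named Bipolar Cells, ordered by OPN4XB, with a point per library coloured by age and a bar at the mean of 6. Cluster 10 was highest for both genes (356 and 127), cluster 7 high for OPN4XB (315), and clusters 12 and 9 higher for OPN4B (89.1 and 84.7) than their place on the OPN4XB order.

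OPN4B rose in Bipolar Cells between 6 and 18 weeks, at the edge of the threshold. The log2 fold change was 0.45 (SE 0.13, adjusted p 0.04997), in a type where 6.94% of all genes were called and 3.17% were called higher. Both 18-week-old libraries were above all younger ones. DESeq2 gave 0.45 with an adjusted p of 0.235, and leaving out any 6- or 18-week-old library took the adjusted p to between 0.150 and 0.227, so the call rests on every one of these 4 libraries. Over 15 alternatives the adjusted p ranged from 0.0168 to 0.235. Without cluster 10, the bipolar cluster with the highest OPN4B level, the change was 0.48 (adjusted p 0.0444). In the 7 bipolar clusters where OPN4B could be tested, the change was above 0 in 7, from 0.28 to 1.501 with a median of 0.75. None was called by edgeR (smallest adjusted p 0.125). The clusters are parts of the Bipolar Cells sums from the same libraries, so their common direction is no separate support for the call. The share of all genes with a change above 0 in these clusters is not given here.

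OPN4B in amacrine cells gave no call. The change was 1.06 (SE 0.33, unadjusted p 0.00818, adjusted p 0.316) in GABAergic Amacrine Cells and 0.43 (SE 0.51, adjusted p 0.997) in Starburst Amacrine Cells. In the first of them 18-week-old library 2 was the highest and 18-week-old library 1 the next.

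OPN4XB was highest in horizontal cells, the interneurons that feed back to photoreceptors. Horizontal Cells had 684, 589, 725, 647, 716 and 868 CPM (mean 705 ± 94.2). Vip Neurons had 126, 180, 191, 150, 238 and 193 (mean 180 ± 38.7) and Bipolar Cells 160, 168, 168, 163, 173 and 196 (mean 171 ± 12.9). Horizontal Cells were 3.92-fold above Vip Neurons with no overlap, whereas Vip Neurons and Bipolar Cells overlapped. GABAergic/PVALB5 Amacrine Cells came next at 45.0, below every library of the first 3 types, and all others averaged 18.0 or less.

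An OPN4XB UMI was found in 82.3% of Horizontal Cells (Wilson 95% interval 80.8% to 83.7%), 45.2% of Vip Neurons and 26.4% of Bipolar Cells, beside 2.75% of Immune Cells and 2.44% of Oligodendrocytes. Thinned to 1000 UMIs the shares were 44.9%, 16.1%, 14.6%, 1.83% and 0.813%. OPN4XB counts reached 56 in a single horizontal cell, and 151 horizontal cells had at least 10. In Retinal Ganglion Cells the thinned share was 0.531%, lower than in Immune Cells and Oligodendrocytes.

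OPN4XB was not even across Horizontal Cells. Cells were grouped by UMIs of the horizontal cell factors LHX1A, BARHL2 and ISL1. In birds LHX1 marks axon-bearing horizontal cells and ISL1 axonless ones. The 2065 cells with LHX1A or BARHL2 had 659 to 917 CPM (mean 756 ± 91.4), and the 193 cells with ISL1 only had 284 to 527 (mean 388 ± 94.1). The 459 cells with none of these UMIs had 383 to 625, and their mean of 482 lay between. In both 18-week-old libraries they were below the cells with ISL1 only (413 beside 441, and 477 beside 527). Cells of the first group were the deepest in every library, and the part of depth in the difference was not tested.

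Among bipolar clusters OPN4XB was highest in cluster 10 (356 CPM) and cluster 7 (315), followed by cluster 25 (216), cluster 6 (210), cluster 13 (196) and cluster 8 (189). The order was not that of OPN4B, for cluster 13 was near the bottom for OPN4B and cluster 9 near the bottom for OPN4XB.

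OPN4XB gave no call with age. At 18 against 6 weeks the log2 fold change was 0.25 (SE 0.12, adjusted p 0.292) in Horizontal Cells, 0.10 (SE 0.11, adjusted p 0.609) in Bipolar Cells and 0.45 (SE 0.26, adjusted p 0.595) in Vip Neurons. In Horizontal Cells 4.35% of all genes were called at these ages. The channel gene TRPC6B rose in Bipolar Cells by 0.65 on the log2 scale, with 255, 207, 288, 296, 340 and 419 CPM, the only 1 of 11 tested signalling entries to be called there (6.94% of all genes of that type were called), and none of 6 was called in Horizontal Cells by edgeR.

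Over the 4 genes and 16 types, 27 of 64 pairs had enough counts for a test, 16 of them for OPN1SW1, 1 for OPN4A, 3 for OPN4B and 7 for OPN4XB. At 18 against 6 weeks 3 pairs were called, 2 higher and 1 lower, beside 2.36% of all gene and type pairs, and 4 had an unadjusted p under 0.05. At 12 against 6 weeks edgeR called none (2 with an unadjusted p under 0.05, smallest adjusted p 0.179, and 1 call by DESeq2), beside 0.122% of all pairs. At 18 against 12 weeks 2 were called, beside 0.493%, and 6 had an unadjusted p under 0.05. Of the 5 calls, 4 were OPN1SW1 in types that hold it in few cells and 1 was OPN4B in Bipolar Cells.

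**Figure D5:**
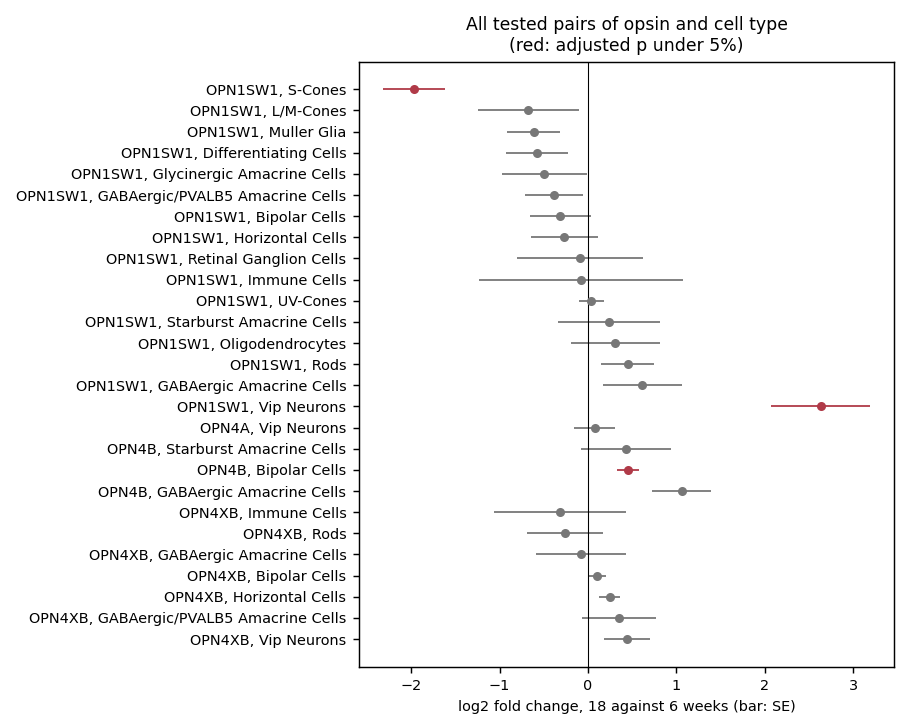
Log2 fold change at 18 against 6 weeks with its SE for the 27 tested pairs of opsin and cell type, with red points where the adjusted p of edgeR was under 5%. Red points are OPN1SW1 in S-Cones (-1.97) and Vip Neurons (2.63) and OPN4B in Bipolar Cells (0.45), while OPN1SW1 in UV-Cones lies at 0.04 with a narrow error.

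Of 10 entries listed as other opsins, LWS-B was the only one called in any type at 18 against 6 weeks. It fell in Bipolar Cells (-0.91, 1 of 8 tested entries), Horizontal Cells (-1.20, 1 of 3), Müller glia (-1.08, 1 of 3) and Retinal Ganglion Cells (-1.63, 1 of 3), where its means were 26.4 to 97.4 CPM. Of all genes of these types 3.76%, 2.68%, 2.55% and 0.123% were called lower. LWS-B averaged 126 CPM in Immune Cells and 24.1 in Oligodendrocytes, the types used above for the background of OPN1SW1. Whether cells of the 4 types make LWS-B themselves was not tested. LWS-B was not called in S-Cones (0.30, adjusted p 0.514) or UV-Cones (-0.85, adjusted p 0.261). OPN1SW1 was not called in those 4 types.

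In sums over all cells, where more cells of a type and more RNA per cell cannot be told apart, none of the 4 genes was called by edgeR or DESeq2 at 18 against 6 weeks, beside 3.63% of all genes. OPN4XB changed by 0.52 (SE 0.15, adjusted p 0.102) and OPN4B by 0.49 (SE 0.16, adjusted p 0.127), both with an unadjusted p under 0.05. OPN4A changed by 0.27 (SE 0.28) and OPN1SW1 by 0.01 (SE 0.26).

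For each opsin the 3 genes with the most similar pattern were taken by the Pearson correlation of log2(level + 1) across 16 types, among 8945 genes that reached 50 CPM in a type. For OPN1SW1 these were LOC107384624 (0.96), BX005410.1 (0.95) and DGAT2 (0.94), which encodes an enzyme of triglyceride synthesis. For OPN4A they were FHL2(1OF2) (0.99), a LIM domain protein, LOC107375847 (0.99) and OLA.5803 (0.98). For OPN4B they were HTR2A (0.98), a serotonin receptor, GABRD (0.97), a GABA receptor subunit, and CU693440.1 (0.95). For OPN4XB they were PRKCHA (0.92), a protein kinase C, PLEKHD1 (0.91) and NSMFA (0.90). The types share libraries and depth, and the correlations are given as a description.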

How the data were processed

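The deposited matrix held untransformed UMI counts for every cell and gene, made by the authors with Cell Ranger 7.0.1 on a custom transcriptome (GRZ assembly, NCBI annotation and long-read transcripts of telencephalon). The authors kept cells by their number of transcripts and clustered and named them with Monocle3. Whether doublets were removed is not given in the sources used here. Counts were summed per library and subtype name (at least 10 cells in each library), genes were filtered with filterByExpr, sums were scaled by trimmed means of M-values, and ages were compared with edgeR 4.0.16 (quasi-likelihood test, age as a factor of 3 levels, R 4.3.3), with Benjamini-Hochberg adjustment over the genes of each fit and a threshold of 5%. DESeq2 1.42.0, thinning to 1000 UMIs per cell, other scalings, no filter, left-out libraries and a replicate block were alternatives. The script was tested on simulated counts. The library was the replicate. The study describes the 2 libraries of an age as biological replicates, each of pooled fish, and p-values measure the spread between these libraries.

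Entries were the 4 that the symbol rule finds, and described types had a mean of at least 50 CPM or a call. The members and the gene lists were chosen with earlier results of these data known, and 15 entries of other families that matched a list's letters were left out. The limit of 1% OPN1SW1 per cell (86 cells outside UV-Cones), the fit without cluster 10 and the fits by cluster were chosen after seeing the data. RefSeq (assembly NfurGRZ-RIMD1) was used for names and neighbours only, as it is not the assembly of the files, so no coordinates are given. Across symbols ending in 1OF2, reads of like copies may have been shared. A few entries of the lists are not reported here.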

Additional observations from a re-analysis of the deposited data

Results flagged for a closer look

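In plain CPM of OPN1SW1 both 18-week-old libraries were below both 6-week-old ones in S-Cones and above them in UV-Cones, but the fitted change in UV-Cones was 0.04 (SE 0.14) and was not called. The difference of the changes in mean log2(CPM + 1) without TMM scaling, S-Cones minus UV-Cones, was -2.55. The exact permutation test of the difference itself gave p 0.111 (1 comparison), so it did not pass. In S-Cones 95.8% of the UMIs lay in 42 cells of at least 1% OPN1SW1.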

How the results depend on the processing

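The 3 calls at 18 against 6 weeks became 0 with DESeq2, 1 with cells thinned to 1000 UMIs, 6 with no filter on low counts and 0 in the 12 annotated types. Those at 12 against 6 weeks (0) became 1 with DESeq2, 4 with no filter, 0 to 3 with a library left out and 1 without the cells of at least 1% OPN1SW1. Those at 18 against 12 weeks (2) became 0 with DESeq2, 0 with thinning, 7 with no filter, 1 to 2 with a library left out and 0 without those cells. OPN1SW1 in S-Cones was not called at 18 against 6 weeks with DESeq2 (-1.99) or thinning (-1.26), nor at 18 against 12 weeks with DESeq2 (-2.28), thinning (-0.90) or without those cells (0.29), and stayed called with any library left out (-3.63 to -1.22 and -3.91 to -1.504). In Vip Neurons it was not called with DESeq2 (2.53 and 2.72), with the 2 ages compared only (2.64) or without those cells (0.25 and 0.42), and it ranged from -0.26 to 3.41 and from -0.091 to 3.59 with a library left out. OPN4B in Bipolar Cells kept 0.45 but not its call with DESeq2, with RLE size factors and with adjustment over all gene and type pairs, and ranged from 0.40 to 0.52 with a library left out.

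With a library left out, the uncalled change of OPN1SW1 at 18 against 6 weeks took either sign in Bipolar Cells (-0.92 to 0.77, both called), Differentiating Cells (-1.07 to 0.067), GABAergic Amacrine Cells (-0.035 to 1.79), Glycinergic Amacrine Cells (-1.09 to 0.56), Horizontal Cells (-0.92 to 0.76), Immune Cells (-3.34 to 2.53), L/M-Cones (-2.89 to 0.13, and 0.12 with thinning), Retinal Ganglion Cells (-0.66 to 0.95), Starburst Amacrine Cells (-0.24 to 0.96) and UV-Cones (-0.028 to 0.052, and -0.022 with no filter), as did OPN4A in Vip Neurons (-0.027 to 0.17). The difference in the UV-Cones share ranged from -1.25 to 0.37 percentage points. The S-Cones share was called by edgeR on cell numbers (0.59), but not as a share of all cells. With a replicate block the exact permutation test has too few assignments to call any share, so that setting decides nothing. The causes were not tested.

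Correlations between the deviations of same-numbered libraries took either sign, from -0.36 to 0.38. The highest was that of the sums over all cells at 12 and 18 weeks. A replicate block gave 4, 0 and 2 calls (18 against 6, 12 against 6 and 18 against 12 weeks). The added call was OPN1SW1 in L/M-Cones (-1.11). Types of few cells limit what could be seen, with 29 to 63 Vip Neurons per library.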
